A study of Mus musculus with 11 samples.

Results

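Calcium signalling through calmodulin, calcineurin and calmodulin kinase II is described here by 9 mouse genes: Calm2 and Calm3 (calmodulin), Ppp3ca, Ppp3cb and Ppp3r1 (calcineurin subunits), Rcan1 (a calcineurin regulator), Nfatc1 (a transcription factor that calcineurin activates), and Camk2d and Camk2g (kinase subunits). They were chosen by name, as the rows of the raw count table whose Ensembl identifiers map to those symbols, and are 9 of the 15113 genes in that table. All 9 passed the filter on low counts, which left 13025 genes for testing. The cells were C2C12, a mouse skeletal myoblast line that forms multinucleated myotubes, labelled as myotubes at an early stage and at passages 2 to 5. Control libraries (shRandom, n = 6) carried a random hairpin, and Drp1 libraries (shDRP1, n = 5) carried a hairpin against Drp1, the GTPase encoded by Dnm1l that divides mitochondria. No other genotype or agent is named for either group, and neither the delivery of the hairpins nor the clones or pools used is given in the labels. The series title places the comparison in a study of how Drp1 bears on calcium handling and fuel use in muscle. Each library counts 3' tags, short reads primed from the poly(A) tail, so a transcript gives about 1 tag whatever its length.

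Calmodulin is a small calcium-binding protein with EF-hand loops that, once loaded with calcium, binds and switches on other enzymes. Calcineurin is a calcium- and calmodulin-dependent phosphatase made of a catalytic A subunit and a regulatory B subunit, and it removes phosphates from NFAT factors, which then enter the nucleus. Calmodulin kinase II (CaMKII) is a large ring of kinase subunits that can stay active after a calcium pulse has ended, and in muscle both enzymes are known for coupling contractile activity to gene expression.

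The libraries held between 12277622 and 23082617 counts. Dnm1l fell from 78.6 ± 8.63 CPM (the counts-per-million scale; SD, n = 6) in control to 18.7 ± 2.58 CPM (SD, n = 5) in Drp1 libraries, a log2 fold change of -2.07 (edgeR quasi-likelihood test, Benjamini-Hochberg adjusted p = 2.72e-10). The 14 myotube markers summed to between 13192 and 14408 CPM in control libraries and to between 255 and 319 CPM in Drp1 libraries, and all 14 were lower, so the defining markers of the labelled cell type were at low levels in the Drp1 group. Of the smooth muscle markers 4 of 5 tested were higher (sums 2687 to 3226 CPM in control and 8369 to 10126 CPM in Drp1). Of the fibroblast markers 5 of 6 tested were higher (3165 to 3712 CPM and 9932 to 16023 CPM). Over all genes tested, 33.9% were higher and 33.3% lower at an adjusted p under 0.05. Myh11 and Myocd of the smooth muscle list and Thy1 of the fibroblast list were absent from the count table. The osteoblast, neural, adipocyte, immune, endothelial and epithelial lists also had genes absent from it. The myoblast sum ranged from 531 to 592 CPM in control and from 126 to 161 CPM in Drp1 libraries. Of the 7 myoblast markers, 6 were lower and 1 was higher. Osteoblast sums were 457 to 601 CPM in control against 142 to 173 CPM in Drp1, neural sums 20.9 to 28.4 against 9.28 to 14.3 CPM, and adipocyte sums 10.5 to 16.4 against 7.72 to 13.9 CPM. Immune sums were 2.10 to 3.55 against 11.9 to 19.8 CPM, with Itgam at 0 in every Drp1 library, and endothelial and epithelial sums stayed at or below 1.29 CPM. All marker sums except the adipocyte and endothelial ones separated the groups, alongside every difference described below. The part of these marker sums in those differences was not tested. In such bulk libraries, fewer cells of a type and less RNA per cell cannot be told apart. Whether each library is a culture of its own is not stated in the labels, and every p-value below therefore refers to the spread among these 11 libraries, part or all of which may be technical.

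Of the 9 genes, 5 were higher in Drp1 libraries, 2 were lower and 2 did not pass the threshold of an adjusted p of 0.05. The same test called 67.1% of all genes tested, 33.9% higher and 33.3% lower, so 7 of 9 is near the background share and is not a result about these genes. Groups did not overlap for 4 of the 9 genes (Rcan1, Calm3, Camk2d and Camk2g), against 48.9% of all genes tested. Of these 4, 3 were higher and 1 was lower, beside 23.5% and 25.4% of all genes tested. The changes were small: log2 fold changes ran from -0.36 to 0.73, and no member changed by 2-fold or more, whereas 25.0% of all genes tested did. The median absolute log2 fold change was 0.29 over the 9 genes and 0.47 over all genes tested, and the signed medians were 0.22 and 0.03. The 9 genes were chosen with earlier results of these data known, and these values describe only them. Among paralogs outside the 9, Camk2a changed by -4.91 and Ppp3cc by -0.43 on the log2 scale.

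**Figure D1:**
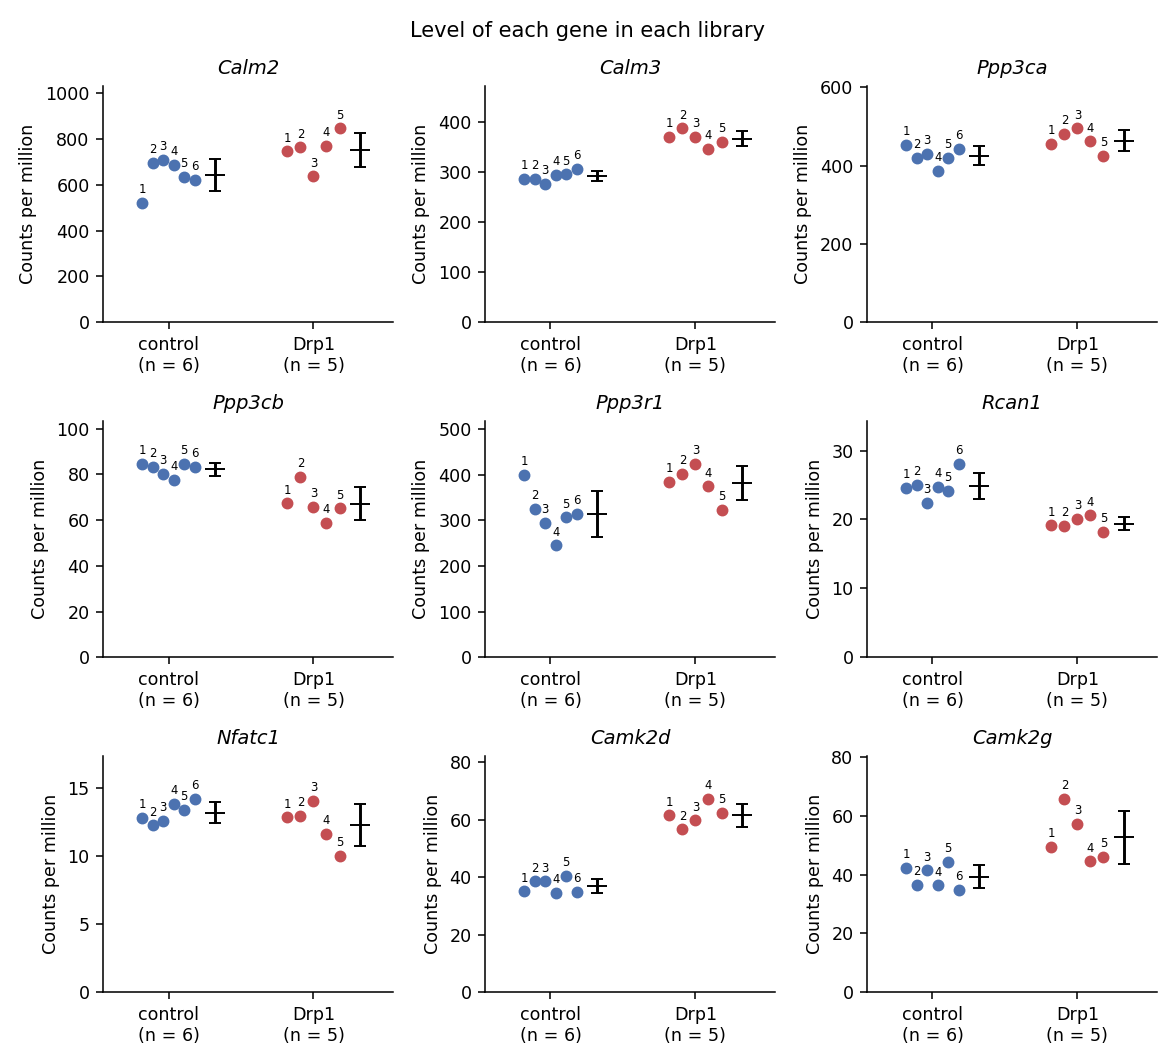
CPM (y axes, each from 0) of the 9 genes in each of the 6 control and 5 Drp1 libraries, with 1 point per library numbered by replicate and black marks for the mean ± SD. Points of the groups do not overlap for Rcan1, Calm3, Camk2d and Camk2g, and Camk2d, from 37.0 to 61.5 CPM on average, has the largest ratio between the group means.

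In control libraries the members ranked by mean CPM as Calm2, Ppp3ca, Ppp3r1, Calm3, Ppp3cb, Camk2g, Camk2d, Rcan1 and Nfatc1. The level of Ppp3r1 (245 to 400 CPM over control libraries) overlapped those of both its neighbours, Ppp3ca (386 to 454 CPM) and Calm3 (276 to 306 CPM), and Camk2g overlapped Camk2d. In Drp1 libraries the order differed only in that Camk2d (61.5 CPM on average) stood above Camk2g (52.6 CPM), and their ranges overlapped there too. In those libraries Ppp3r1 also overlapped Calm3, and Ppp3cb (58.9 to 79.0 CPM) overlapped Camk2d (56.6 to 67.3 CPM). Levels between genes are compared here in CPM, with no division by length, and tags per transcript can still differ with how well each 3' end is primed.

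Calm2 (ENSMUSG00000036438, GRCm38 chr17:87433412-87446935, minus strand) and Calm3 (ENSMUSG00000019370, chr7:16915379-16924114, minus strand) both encode calmodulin. Their coding sequences in GENCODE M21 are 447 bases long, differ at 78 bases and at 76 of 149 codons, and differ at 0 encoded residues, so they give the same protein and only the tags tell them apart. The stretch coding for the first calcium-binding loop (residues 21 to 32, coding bases 61 to 96) shows how different messages spell 1 protein, with capitals at the 7 bases that differ:
Calm2: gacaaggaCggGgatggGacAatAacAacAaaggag
Calm3: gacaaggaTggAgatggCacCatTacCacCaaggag

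Calm2 was at 520 CPM in the lowest, 660 CPM in the median and 710.5 CPM in the highest control library. Drp1 replicates 1 to 5 had 746, 764, 638, 771 and 846 CPM. Drp1 replicate 3 lay inside the control range and the other 4 above every control library, with control replicate 1 the lowest of all. The means of 644 ± 70.6 CPM (SD, n = 6) and 753 ± 75.0 CPM (SD, n = 5) gave a log2 fold change of 0.22 ± 0.087 (SE; 95% confidence interval 0.04 to 0.41; edgeR adjusted p = 0.0343). This call was lost under 12 of 23 alternatives, among them leaving out any 1 of control replicates 1, 5 and 6 or Drp1 replicates 1, 2, 4 and 5 (adjusted p 0.055 to 0.0883) and DESeq2 (0.0521). Without the 4 libraries at the ends of the within-group spread, described below, its log2 fold change was 0.11 (adjusted p = 0.235).

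Calm3 was at 276 CPM in the lowest, 291 CPM in the median and 306 CPM in the highest control library. Drp1 replicates 1 to 5 had 370.2, 386, 370.1, 345 and 360.1 CPM. Every Drp1 library lay above every control library, and both groups were narrow. Calm3 rose by a log2 fold change of 0.33 ± 0.050 (SE; edgeR adjusted p = 3.64e-05), from 291 ± 10.01 CPM (SD, 6 libraries) to 366 ± 15.1 CPM (SD, 5 libraries), or 126% of the control mean.

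Among the catalytic A subunits of calcineurin, Ppp3ca (alpha isoform; ENSMUSG00000028161, chr3:136670124-136937727, plus strand) was the most abundant. It was at 386 CPM in the lowest, 425 CPM in the median and 454 CPM in the highest control library, and at 455, 481, 495, 461.9 and 425 CPM in Drp1 replicates 1 to 5. Drp1 replicate 5 lay inside the control range, and the other 4 lay above every control library. The means were 425 ± 23.3 CPM in control and 464 ± 26.8 CPM in Drp1 libraries, and the log2 fold change of 0.12 (95% confidence interval -0.00 to 0.25) did not pass the threshold (edgeR adjusted p = 0.0749). It passed with library totals alone (0.22, adjusted p = 0.00725), with upper quartile scaling (0.21, adjusted p = 0.00632), with a stricter filter, without Drp1 replicate 5 (0.16, adjusted p = 0.0337) and with the ribosomal RNA share as a covariate.

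Ppp3cb (beta isoform; ENSMUSG00000021816, chr14:20499364-20546573, minus strand) went the other way. It was at 77.5 CPM in the lowest, 83.3 CPM in the median and 84.8 CPM in the highest control library. In Drp1 replicates 1 to 5 it was at 67.4, 79.0, 65.7, 58.9 and 65.1 CPM. Only Drp1 replicate 2 reached into the control range, and the other 4 lay below every control library. Ppp3cb fell by 0.29 on the log2 scale (SE 0.070, edgeR adjusted p = 0.00185), from 82.3 ± 2.84 CPM (SD, 6 libraries) to 67.2 ± 7.34 CPM (SD, 5 libraries).

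The balance between the catalytic isoforms moved from beta to alpha. Ppp3cb made up 16.2 ± 0.496% of the tags of the 3 A subunits in control and 12.6 ± 1.14% in Drp1 libraries, and Ppp3ca made up 83.5 ± 0.527% and 87.1 ± 1.14%, both without overlap (difference of group means, exact permutation of all library splits, two-sided, p = 0.00216 for each, the smallest this design can give; adjusted p = 0.00303 over 7 shares tested). Such a share does not depend on the scaling of libraries. The shares of Ppp3ca and Ppp3cb nearly mirror each other, as parts of the same total, and are not separate results. The third isoform, Ppp3cc, was near 1 to 2 CPM in both groups (1.70 ± 0.535 and 1.26 ± 0.339 CPM, edgeR adjusted p = 0.151). The summed level of the A subunits was 509 ± 25.5 CPM in control and 532 ± 30.3 CPM in Drp1 libraries (exact permutation p = 0.214), and it passed the threshold with library totals alone (adjusted p = 0.0281) and upper quartile scaling (adjusted p = 0.013).

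Ppp3r1 encodes the regulatory B subunit, the calcium-binding partner of either A isoform (ENSMUSG00000033953, chr11:17159263-17200375, plus strand). It was at 245 CPM in the lowest, 311 CPM in the median and 400 CPM in the highest control library. Drp1 replicates 1 to 5 had 384, 401, 425 (replicate 3, the highest), 374 and 323 CPM. Control replicate 1 was next to Drp1 replicate 2, control replicate 4 was the lowest of all 11, and 2 of 5 Drp1 libraries lay above every control library. The means were 314 ± 50.2 CPM in control and 381 ± 37.7 CPM in Drp1 libraries, and the log2 fold change was 0.28 ± 0.10 (SE; 95% confidence interval 0.06 to 0.50; edgeR adjusted p = 0.0287). This call was lost without any 1 of control replicates 3, 4 and 5 or Drp1 replicates 1, 2 and 3 (adjusted p 0.0501 to 0.0738).

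Rcan1 encodes a small protein that binds calcineurin and, in its best known role, inhibits it, and the gene is itself a known target of NFAT. It lies at chr16:92391953-92470867 on the minus strand (ENSMUSG00000022951). It was at 22.4 CPM in the lowest, 24.7 CPM in the median and 28.1 CPM in the highest control library. Drp1 replicates 1 to 5 had 19.1, 19.0, 20.1, 20.6 and 18.2 CPM, all below every control library. Rcan1 fell by 0.36 on the log2 scale (SE 0.074, edgeR adjusted p = 0.000637), from 24.8 ± 1.85 CPM (SD, 6 libraries) to 19.4 ± 0.934 CPM (SD, 5 libraries).

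GENCODE M21 lists several distal starts and an internal start for the gene, and it is the transcript from the internal start that is known for its response to calcineurin. That transcript ends at 92391955, and transcripts from distal starts end within a few bases of it (92391953, 92391955 and 92391959), apart from one that ends at 92392510. Tags at the shared ends do not separate the starts, and the fall cannot be assigned to either kind. RefSeq promoter windows (250 bases before to 50 after the start, GRCm38.p6, minus strand) are shown for the internal start and 1 distal start, and for Ppp3cb, the other member that fell. Capitals mark the letters GGAAA or their reverse complement TTTCC, the core that NFAT factors bind, searched on both strands.
Rcan1 distal start, chr16:92466120-92466419: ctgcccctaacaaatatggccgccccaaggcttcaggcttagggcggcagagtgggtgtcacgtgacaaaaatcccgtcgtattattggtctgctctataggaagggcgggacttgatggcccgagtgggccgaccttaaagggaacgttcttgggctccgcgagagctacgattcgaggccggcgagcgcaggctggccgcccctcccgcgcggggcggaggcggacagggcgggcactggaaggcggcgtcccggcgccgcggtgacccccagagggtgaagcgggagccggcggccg
Rcan1 internal start, chr16:92400029-92400328: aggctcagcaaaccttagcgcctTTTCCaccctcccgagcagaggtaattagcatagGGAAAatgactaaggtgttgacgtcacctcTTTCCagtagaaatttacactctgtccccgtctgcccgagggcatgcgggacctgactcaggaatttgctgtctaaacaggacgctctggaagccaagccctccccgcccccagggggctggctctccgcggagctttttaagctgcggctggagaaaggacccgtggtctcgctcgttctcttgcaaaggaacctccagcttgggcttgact
Ppp3cb, chr14:20546524-20546823: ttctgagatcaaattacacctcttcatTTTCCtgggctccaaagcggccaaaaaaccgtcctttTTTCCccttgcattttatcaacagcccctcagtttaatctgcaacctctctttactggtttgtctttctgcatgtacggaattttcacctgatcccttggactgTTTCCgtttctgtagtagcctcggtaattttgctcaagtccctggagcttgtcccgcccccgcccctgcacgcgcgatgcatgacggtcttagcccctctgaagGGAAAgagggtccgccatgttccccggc

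The distal window held 0 matches, the internal window 3 and the Ppp3cb window 4. Of 32851 windows of this length, 61.3% held at least 1 match, 9.42% at least 3 and 2.65% at least 4, so a match alone is common. The windows of Camk2d and Calm3, which rose, held 1 match each, and that of Ppp3r1 held 0. Base composition differed too: G and C made up 56.3% of the internal window and 51% of the Ppp3cb window. They made up 67.7% of the distal window, 70.3% for Camk2d, 72% for Calm3 and 70.7% for Ppp3r1. The windows counted for comparison were not matched for this. The windows of Ppp3ca, Calm2, Camk2g and Nfatc1 were not used here. These are matches of letters only, and binding was not measured. Whether the number of matches goes with the direction of change was not tested.

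Nfatc1, the NFAT family member long studied in muscle and immune cells (ENSMUSG00000033016, chr18:80606205-80713071, minus strand), had the lowest level of the 9. It was at 12.2 CPM in the lowest, 13.1 CPM in the median and 14.2 CPM in the highest control library, and at 12.8, 12.9, 14.0, 11.6 and 10.01 CPM in Drp1 replicates 1 to 5. Only Drp1 replicates 4 and 5 lay below the control range. The means were 13.1 ± 0.766 CPM in control and 12.3 ± 1.53 CPM in Drp1 libraries, and the log2 fold change was -0.10 (95% confidence interval -0.30 to 0.10; edgeR adjusted p = 0.362), and with library totals alone its sign turned (0.0019). The interval spans a fall of up to 0.30 and a rise of up to 0.10 on the log2 scale. The value rested on 1427 counts over the control and 1078 over the Drp1 libraries.

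On the log2 scale the CaMKII members moved most of the 9. Camk2d encodes the delta subunit, known best from the heart (ENSMUSG00000053819, chr3:126596302-126846326, plus strand). It was at 34.5 CPM in the lowest, 36.8 CPM in the median and 40.4 CPM in the highest control library, and at 61.5, 56.6, 59.7, 67.3 and 62.5 CPM in Drp1 replicates 1 to 5. The lowest Drp1 library was above the highest control library by more than the range within either group. Camk2d rose by a log2 fold change of 0.73 ± 0.066 (SE; edgeR adjusted p = 1.74e-07), to 166% of the control mean, and 34.8% of all genes tested changed by more.

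Camk2g, the gamma subunit, broadly expressed and present in skeletal muscle (ENSMUSG00000021820, chr14:20734875-20794088, minus strand), was at 34.9 CPM in the lowest, 38.9 CPM in the median and 44.4 CPM in the highest control library. Drp1 replicates 1 to 5 had 49.5, 65.8, 57.3, 44.5 and 46.1 CPM. The groups did not overlap, but by a narrow margin, since Drp1 replicate 4 (44.46 CPM) was next to control replicate 5 (44.41 CPM). The log2 fold change was 0.42 ± 0.10 (SE; edgeR adjusted p = 0.00254), from 39.3 ± 3.89 CPM (SD, 6 libraries) to 52.6 ± 8.87 CPM (SD, 5 libraries).

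**Figure D2:**
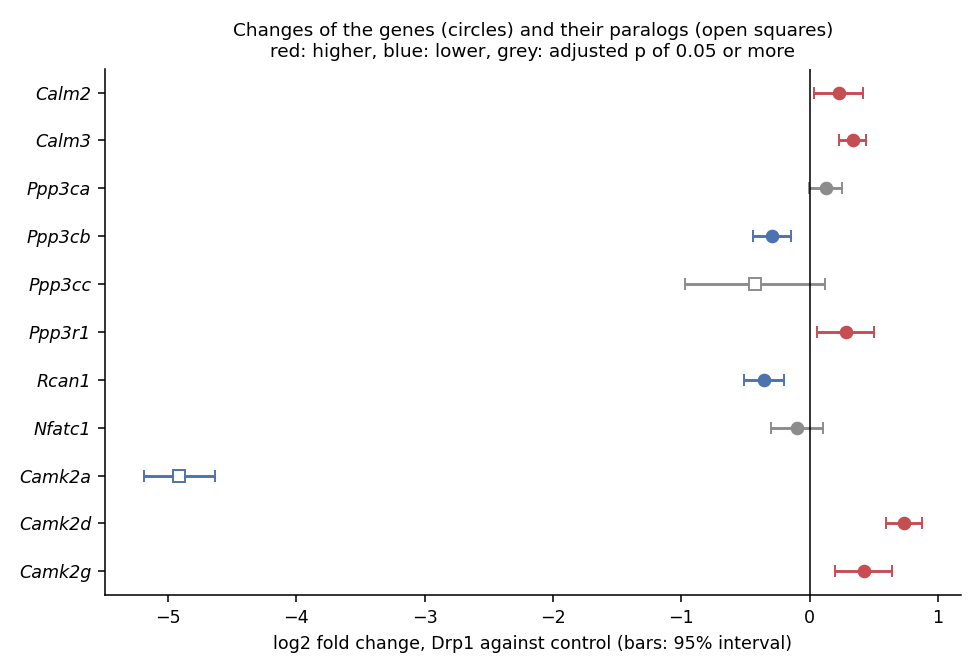
Log2 fold change, Drp1 against control (x axis), of the 9 genes (circles) and of their paralogs Ppp3cc and Camk2a (open squares), with bars for 95% confidence intervals from edgeR and colours for the call. Among the circles Camk2d lies farthest from 0 at 0.73 and the intervals of Ppp3ca and Nfatc1 include 0, and the square of Camk2a lies at -4.91.

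The rise of these subunits stood beside a loss of Camk2a tags. Camk2a, which encodes the alpha subunit and is no member, had 99.2 ± 11.2 CPM in control libraries (82.5 to 116 CPM) and 3.30 ± 0.636 CPM in Drp1 libraries, a log2 fold change of -4.91 ± 0.13 (SE; edgeR adjusted p = 1.89e-13). The same locus also encodes alphaKAP, a muscle anchoring protein of the sarcoplasmic reticulum that lacks the kinase domain. GENCODE M21 lists coding transcripts at Camk2a with an internal start as well as the full-length one, and tags counted per gene do not separate the products. Camk2b had 65 counts over the control and 24 over the Drp1 libraries and was not tested.

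Within the tags of the 4 CaMKII genes, Camk2d went from 21.0 ± 1.45% in control to 52.4 ± 5.16% in Drp1 libraries and Camk2g from 22.4 ± 2.80% to 44.5 ± 5.59%. The Camk2a share went from 56.2 ± 4.06% to 2.82 ± 0.624%. None of these 3 shares overlapped between groups (exact permutation p = 0.00216 and adjusted p = 0.00303 for each). The shares are parts of the same total, so a fall of the Camk2a share raises the others, and these are not separate results. The summed CaMKII level fell from 176 ± 9.40 CPM to 118 ± 4.96 CPM, 66.8% of control, without overlap (exact permutation p = 0.00216, adjusted p = 0.00433 over 2 sums). Without Camk2a the sum of the other CaMKII genes was 76.9 ± 5.69 CPM in control and 114 ± 5.38 CPM in Drp1 libraries, so the direction of the family total depended on the Camk2a tags.

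**Figure D3:**
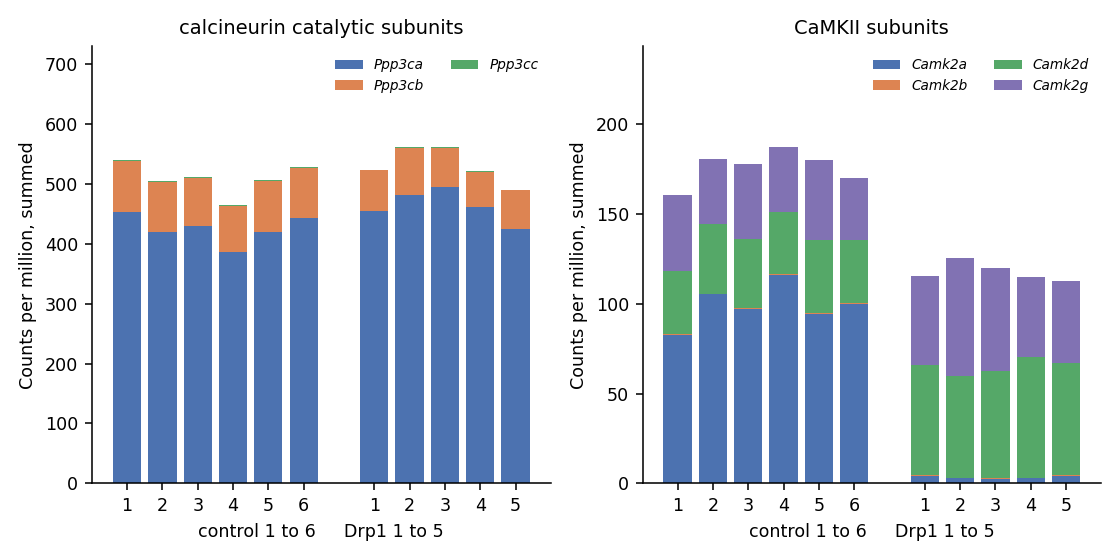
Stacked counts per library (CPM on a scale from 0, 1 bar for each of the 6 control and 5 Drp1 libraries) of the calcineurin catalytic subunits and the CaMKII subunits, with colours for the paralogs. The Camk2a segment, 56.2% of CaMKII tags on average in control bars, is 2.82% in Drp1 bars, while the mean share of each calcineurin paralog moves by less than 4 percentage points.

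The extreme values of members within a group were spread over many libraries. The leading component of the within-group variation took up 55.1% of it in control, with replicates 1 and 4 at its ends, and 62.1% in Drp1 libraries, with replicates 2 and 5 at its ends. Control replicate 1 had the lowest Calm2 and the highest Ppp3ca, Ppp3cb and Ppp3r1 of its group. Control replicate 4 had the lowest Ppp3ca, Ppp3cb, Ppp3r1 and Camk2d. The other control extremes of members lay in replicates 2, 3, 5 and 6. Drp1 replicate 2 had the highest Camk2g, Ppp3cb and Calm3 and the lowest Camk2d of its group. Drp1 replicate 5 had the highest Calm2 and the lowest Ppp3ca, Ppp3r1, Rcan1 and Nfatc1. Away from the ends of the component, Drp1 replicate 4 had the highest Rcan1 and Camk2d and the lowest Ppp3cb, Calm3 and Camk2g. Drp1 replicate 3 had the highest Ppp3ca, Ppp3r1 and Nfatc1 and the lowest Calm2. Ribosomal RNA was taken as the counts of Gm42418 and of the mitochondrial genes mt-Rnr1 and mt-Rnr2. It made up 4.14% of counts in control replicate 1 and at most 7.14% in the control group. It made up 4.55% in Drp1 replicate 2, 4.53% in Drp1 replicate 3 and 8.72% in Drp1 replicate 5. The part of these shares in the differences between libraries was not tested. An analysis added after the data were seen left out the 4 libraries at the ends of the component. Camk2d (0.72), Camk2g (0.36), Calm3 (0.31), Ppp3r1 (0.34), Rcan1 (-0.32) and Ppp3cb (-0.37, all on the log2 scale) then stayed past the threshold, and Calm2 did not.

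The calls of Ppp3cb, Rcan1, Calm3, Camk2d and Camk2g held under all 23 alternatives tried. In the last 500 bases of each member, 0 stretches of 50 bases were shared with another gene, apart from Calm2, where 2.70% were shared with the predicted gene Gm7308, which had a mean of 1.14 CPM in control and 1.54 CPM in Drp1 libraries. No last exon of a member overlapped an exon of another gene, although Ppp3r1 and Wdr92 share sequence elsewhere on the same strand.

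The genes beside the members on the chromosome also differed in their calls. Among the 20 tested genes nearest to Camk2d, 11 were higher and 1 was lower, with a median log2 fold change of 0.50, and around Ppp3r1 the counts were 11 and 3 with a median of 0.52. Around Calm2, 9 of 19 were higher and 2 lower (median 0.37). The neighbours of Rcan1 had 5 higher and 9 lower (median -0.29). Camk2d at 0.73 and Rcan1 at -0.36 were thus on the side of their neighbours' medians, as were Ppp3r1 and Calm2. Calm3 rose beside neighbours with a median of -0.17 (4 higher and 7 lower). Nfatc1 at -0.10 lay beside a median of 0.18 (7 higher and 4 lower). For Camk2g, Ppp3ca and Ppp3cb the medians were 0.14 (7 and 7), 0.01 (4 and 7) and -0.01 (3 and 8). Over all genes tested, 33.9% were higher and 33.3% lower. Whether location bears on these genes was not tested.

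Levels over the 11 libraries were compared with those of Camk2d by Pearson correlation of log2(CPM + 1). The search covered 8113 genes with a mean of at least 10 CPM over all 11 libraries. Predicted genes, pseudogenes and genes of mitochondrial DNA were left out by name. The 3 most alike were Rab2a at 0.994, Fbxo25 at 0.992 and Aim2 at 0.991. Aim2 had 4.63 CPM in control and 28.8 CPM in Drp1 libraries, so it met the minimum only through the Drp1 group. All 3 were higher in Drp1 libraries, with log2 fold changes of 0.29, 1.00 and 2.64. The points share their group, so these correlations include the gap between the groups.

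Beyond the 9 genes, 79 other genes of calcium and calmodulin signalling were tested, in lists drawn up by role. Of these 21 were higher, 39 were lower and 19 did not pass, with a median log2 fold change of -0.24 beside 0.03 for all genes tested. The background for these counts and those of each list below is 33.9% higher and 33.3% lower over all genes tested. Changes of at least 2-fold that also passed the threshold were found for 6 higher and 23 lower genes of the 79. Over all genes tested, 25.0% changed by at least 2-fold in either direction, a share taken without the threshold and not split by direction. Exons of the opposite strand overlap those of Dnm1l, Ppp3cc, Nfatc3, Dyrk2, Camk4, Mylk, Mef2a, Hdac4 and Hdac7. Without a stated strand setting the reads of such partners cannot be told apart.

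**Figure D4:**
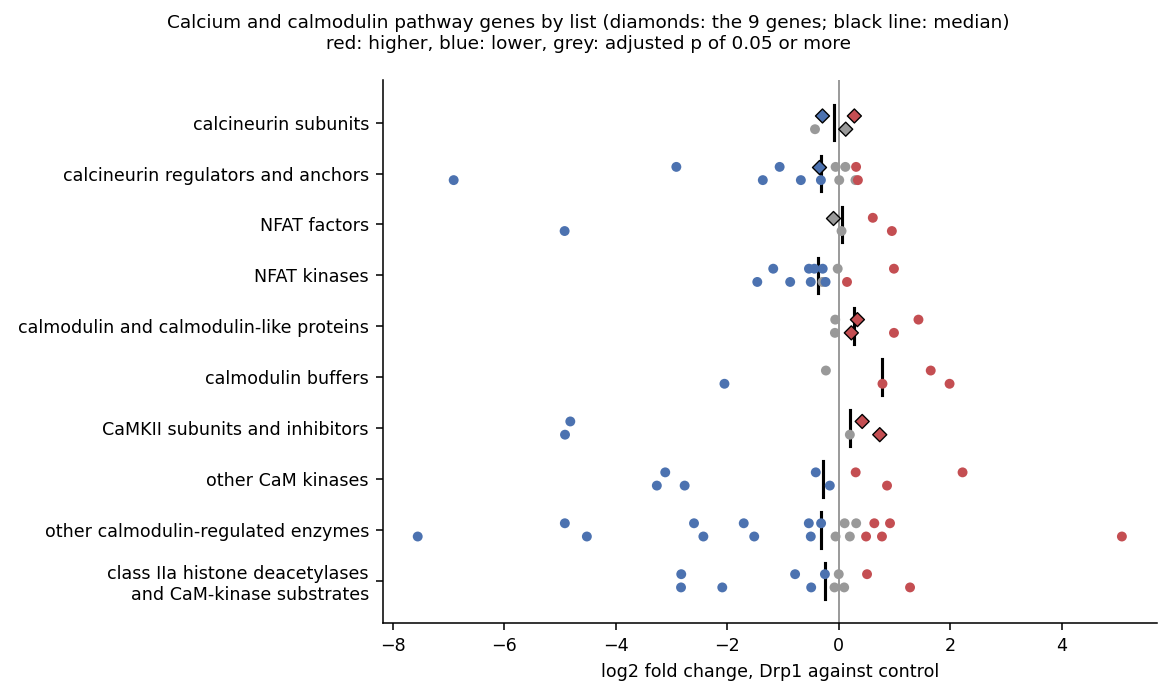
Log2 fold change (x axis) of each tested gene of the 10 calcium and calmodulin lists (rows), with diamonds for the 9 genes, circles for the other genes and black lines for list medians. The diamonds lie between -0.36 and 0.73, while Mylk at 5.08 and Mylk4 at -7.55 mark the ends of the circles.

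Calcineurin regulators and anchors, 13 tested with Rcan1 among them, had 2 higher and 7 lower (median -0.32). Myoz2, a Z-disc protein that binds calcineurin, went from 28.2 ± 7.27 to 0.231 ± 0.0735 CPM (edgeR log2 fold change -6.91, adjusted p = 2.02e-11), on 20 counts over the Drp1 libraries. Akap6, which anchors calcineurin at the nuclear envelope of muscle cells, fell by 2.91 on the log2 scale, and Rcan2, the paralog of Rcan1, by 1.06.

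Of 5 NFAT factors tested, 2 were higher and 1 lower. Nfatc3 rose from 58.9 ± 7.87 to 114 ± 10.6 CPM (log2 fold change 0.95, edgeR adjusted p = 5.31e-07) and Nfat5, which responds to osmotic stress and lacks the calcineurin-docking region of the other NFAT factors, rose by 0.61. Nfatc4 fell from 24.8 ± 3.73 to 0.802 ± 0.250 CPM (log2 fold change -4.92, adjusted p = 7.09e-12). In control libraries Nfatc3 was thus above Nfatc4 and Nfatc1 in CPM, and in Drp1 libraries Nfatc1 at 12.3 CPM was above Nfatc4.

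The kinases that rephosphorylate NFAT or prime it for export had 2 higher and 8 lower of 12 tested (median -0.37). Prkaca, a catalytic subunit of protein kinase A, went from 339 to 150.2 CPM (log2 fold change -1.18), and 15 of the 20 genes nearest to it on chromosome 8 were lower too. Dyrk2 fell by 1.46 and Mapk14, the p38 alpha kinase, rose by 0.99 on the log2 scale (edgeR adjusted p = 1.13e-09 and 2.51e-09).

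Among calmodulin and calmodulin-like genes, Calm2 and Calm3 included, 4 of 6 were higher and 0 lower at the same threshold. Calml4, a calmodulin-like protein, rose from 5.65 ± 0.760 to 15.3 ± 0.382 CPM (log2 fold change 1.43), and Ncs1, a neuronal calcium sensor, by 0.99 with overlap between groups (edgeR adjusted p = 8.44e-09 and 0.00376). Hpcal1, another neuronal calcium sensor, had a log2 fold change of -0.07 (adjusted p = 0.412), whose sign turned with library totals alone and upper quartile scaling. Of 5 proteins that bind and hold calmodulin, 3 were higher and 1 lower. Marcks went from 393 ± 44.2 to 1556 ± 256 CPM and Marcksl1 from 15.6 ± 1.33 to 49.0 ± 2.51 CPM, whereas Gap43 fell by 2.05 on the log2 scale.

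The list of CaMKII subunits and inhibitors held 5 tested genes, of which Camk2d and Camk2g were the 2 higher and Camk2a and Camk2n1 the 2 lower. Camk2n1, an inhibitor protein of CaMKII, went from 61.1 ± 3.50 to 2.15 ± 0.374 CPM (log2 fold change -4.82, edgeR adjusted p = 3.56e-14). The related inhibitor Camk2n2 was at 10.3 ± 0.675 and 11.8 ± 0.826 CPM (edgeR adjusted p = 0.0502), with 4 of 5 Drp1 libraries above every control library. Camk2n2 fell just short of the threshold and passed it as higher under 9 of 23 alternatives. Camk2n1 was thus above Camk2d in control and below it in Drp1 libraries, in CPM.

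The other calmodulin kinases had 3 higher and 5 lower of 8 tested. Camk4 fell from 11.8 ± 1.37 to 1.21 ± 0.249 CPM and Camk1g from 18.5 ± 0.986 to 2.72 ± 0.408 CPM, while Camkk2, the kinase that activates both CaMKI and CaMKIV, rose from 49.5 ± 2.04 to 90.2 ± 5.89 CPM (edgeR adjusted p = 8.04e-11, 1.46e-11 and 7.07e-09).

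Other enzymes regulated by calmodulin had 5 higher and 10 lower of 19 tested (median -0.32). Mylk, the myosin light chain kinase of smooth muscle and non-muscle cells, rose from 10.03 ± 0.824 to 339 ± 15.8 CPM (log2 fold change 5.08, edgeR adjusted p = 1.23e-15). Mylk4 went from 14.1 ± 2.20 to 0.0701 ± 0.0283 CPM, on 6 counts over the Drp1 libraries. Dapk2, a calmodulin-regulated death-associated kinase, fell by 4.52 on the log2 scale.

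Class IIa histone deacetylases and other substrates at the end of the pathway had 2 higher and 6 lower of 11 tested. Mef2a fell from 318 ± 23.4 to 74.8 ± 5.22 CPM and Mef2c from 25.2 ± 2.67 to 3.58 ± 0.908 CPM, both factors that calcium-driven kinases free from histone deacetylases. Hdac7, a class IIa deacetylase, rose from 112 ± 14.1 to 271 ± 37.5 CPM (log2 fold change 1.28, edgeR adjusted p = 4.15e-08). Other deacetylases of this class did not rise. Hdac9 fell from 5.02 to 0.719 CPM and Hdac4 from 54.9 to 46.2 CPM (log2 fold changes -2.83 and -0.25, edgeR adjusted p = 3.32e-08 and 0.0195). Hdac5 did not pass the threshold (adjusted p = 0.377).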

How the data were processed

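The authors deposited raw counts per gene for 11 libraries. Their second deposited table is a signal, each count over a size factor of its library (worked out from the values), and served only to check scaling. Alignment used the BlueBee software per the series text. For the counting program, strand setting and annotation: not given in the sources used here. GRCm38, mm10 and DESeq2 version 1.22.2 appear in the submitters' processing notes. The read length is 75 bp in the series text and 50 bp in the labels' protocols. Symbols came from a reference table of gene names (33 identifiers unmatched) and positions from GENCODE M21. No column of per-sample values was unused.

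Counts were tested with edgeR version 4.0.16 (R version 4.3.3): filterByExpr by group, TMM scaling and robust quasi-likelihood fits on group alone, adjusted over 13025 genes by Benjamini-Hochberg with a threshold of 0.05. CPM use TMM-scaled library sizes, and a standard error is the log2 fold change over the root of its F. Paralog shares and sums were compared by exact permutation of all library labels, adjusted within each kind. Steps were tested on simulated data. Libraries of the same group differed by a chi-square over degrees of freedom of at least 5.03, so none repeated another. Text names Dnm1l, the 9 genes and their paralogs, and the 3 genes most like Camk2d. It also names up to 3 genes per list by smallest adjusted p with a mean of at least 5 CPM over all 11 libraries. Ppp3cc, Camk2b, Gm7308, Wdr92, Hdac4, Hdac5 and Hdac9 were named after their values were seen. A gene of the lists is not reported here. Members and lists were chosen with earlier results of these data known. Lists covered calcineurin subunits, regulators and anchors, NFAT factors and kinases, calmodulin-like proteins, calmodulin buffers, CaMKII with its inhibitors, other CaM kinases, other calmodulin-regulated enzymes, class IIa deacetylases with substrates, and markers of myotube, myoblast, smooth muscle, fibroblast, adipocyte, osteoblast, endothelial, immune, epithelial and neural cells. Alternatives were other scalings and filters, DESeq2 version 1.42.0, limma-voom (limma version 3.58.1), the replicate block, a threshold of 0.01 and leaving out libraries. The ribosomal RNA covariate and leaving out 4 libraries together were chosen after seeing the data.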

Additional observations from a re-analysis of the deposited data

How the results depend on the processing

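Under 23 alternatives, 182 of 207 values of the 9 genes kept direction and side of the threshold, 19 fell short of it, 5 newly passed it and 1 turned sign. The count of members called higher was 5 and ran from 3 to 6 over the alternatives. It was 3 at a threshold of 0.01. When single libraries were left out it was 3 to 5 (3 without the fifth control or the first or second Drp1 library). It was 6 with library totals alone, upper quartile scaling, the stricter filter or the ribosomal RNA covariate, where Ppp3ca passed too. The count lower was 2 throughout. With library totals alone, Nfatc1 was at 0.0019 and the summed calcineurin catalytic subunits differed by 59.05 CPM (53.3 CPM with upper quartile scaling), past the threshold. Hpcal1 turned to 0.029 and 0.016 under these scalings. Leaving out single libraries or both control replicate 1 and Drp1 replicate 2, the Ppp3cc share differed by -0.1283 to -0.06859 and the Camk2b share by -0.1717 to -0.03287 percentage points. The CaMKII sum fell by 60.45 CPM without 4 libraries (exact permutation, adjusted p = 0.0571, which is the smallest this few libraries give for 1 of the sums alone), so this p says nothing on stability. The median log2 fold change of all genes ran from 0.02 to 0.13 over scalings. Same-numbered libraries correlated at -0.16, -0.18, -0.28, 0.48 and -0.24 in their deviations, and 1 of 5 Drp1 libraries correlated best with its own number, so the numbers were not taken as pairs. With the replicate block, Calm2 had an adjusted p of 0.0907, and calls over all genes went from 4413 higher and 4332 lower to 3934 and 4003.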
